A study of Mus musculus with 9 samples.

Results

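The genes described here encode the muscle actins, the tropomyosins and contractile proteins of smooth muscle, 10 of the 14011 genes in the deposited expression table. They were chosen by name, and all 10 had a row in the table. They are the striated muscle actins *Actc1* and *Acta1*, the smooth muscle actin *Acta2*, the tropomyosins *Tpm1*, *Tpm2* and *Tpm4*, and the smooth muscle genes *Tagln*, *Cnn1*, *Myh11* and *Myl9*. RNA was sequenced from E10.5 mouse hearts of mixed strain in 9 libraries, each made from a pool of 6 hearts, with 3 libraries per genotype. The study asked how the transcriptome of the developing heart depends on CTCF, a DNA-binding protein that organizes chromatin loops. Homozygotes were *Ctcf* fl/fl; *Nkx2.5-Cre*/+ and heterozygotes were *Ctcf* fl/+; *Nkx2.5-Cre*/+. Controls did not carry the driver, and their genotype is given as *Ctcf* fl/fl by the sample labels and as *Ctcf* fl/+ by the study's text. *Nkx2.5-Cre* recombines floxed alleles in cardiac progenitors and their derivatives, so other cells of the heart keep *Ctcf*. The table's column names and the sample titles use Het for different genotypes, and all control and heterozygote values below take the columns named Het as controls and those named DH, read as double heterozygous, as heterozygotes with the driver. All groups carried at least 1 floxed allele, and any comparison with controls covers the driver as well as the deletion.

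Actin polymerizes into the thin filament, tropomyosin lies along it and controls the access of myosin, and each muscle type uses its own actin isoform. Cardiac actin is the main isoform of the myocardium, whereas embryonic cardiomyocytes also transiently express smooth muscle genes such as *Acta2* and *Tagln* before these become restricted to vessel walls. Many of these genes are controlled by serum response factor (SRF) and its cofactor myocardin through CArG boxes, short elements with an A and T rich core that often lie close to the transcription start.

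The libraries held between 4294537 and 11629365 reads in all, so that a single read added from 0.0901 to 0.231 to the normalized value of a gene. Control and heterozygous libraries are named below by their total reads and always given in the order 8457617, 9654014 and 6698891 for controls and 9896345, 7946683 and 4294537 for heterozygotes. Homozygous libraries are given as replicates 1, 2 and 3. *Ctcf* was at 67.0% of the control mean in homozygotes and 80.1% in heterozygotes, a value taken across the full gene in whole hearts. Cardiomyocyte markers were present in all libraries (13 of 13 in the table, summed value from 16637 to 23055). Relative to controls, homozygotes had 2 of these 13 called higher (*Tnni3* at a log2 fold change of 0.33 and *Myl4* at 0.23) and 2 lower (*Ryr2* at -1.13 and *Actn2* at -0.35). Against heterozygotes 0 were called higher and 4 lower (*Ryr2* at -1.03, *Myh7* at -0.61, *Myh6* at -0.59 and *Actn2* at -0.51), and their part in the differences of the genes below was not tested. None of 8 skeletal muscle markers, such as *Myod1* and *Myog*, had a row. Erythroid markers were called higher in homozygotes against controls for 8 of 8 genes, with summed values of 57824 to 76434 against 32522 to 47200 in controls and 26119 to 44253 in heterozygotes. Epicardial markers were called higher for 4 of 8 (summed value from 601 to 671 against 440.3 to 504), and cushion mesenchyme markers lower for 3 of 9 (from 1014 to 1285 against 1498 to 1690.3). Most of the cushion mesenchyme sum was *Vcan*, with a mean of 1026 in controls and 652 in homozygotes. In that list only *Col1a1* had a positive log2 fold change against controls (0.47, limma adjusted p = 0.0964). Endothelial markers were called higher for 1 and lower for 2 of 10 (from 1035 to 1260.1 against 1239 to 1376). The shares of all genes called against controls were 7.19% higher and 8.03% lower. Against heterozygotes, where these shares were 6.87% and 6.70%, the calls were 8 of 8 erythroid and 4 of 8 epicardial markers higher, and 3 of 9 cushion mesenchyme and 1 of 10 endothelial markers lower. For neural crest and endoderm, 1 of 6 and 5 of 8 listed markers had a row. Against controls 1 neural crest marker was called lower and 1 endoderm marker higher, and against heterozygotes 0 of either list were called. The summed value of the endoderm markers was from 123 to 719 in controls, 78.6 to 105 in heterozygotes and 82.3 to 149 in homozygotes. The control library of 8457617 reads stood apart, with *Afp* at 595 against 47.6 and 49.2 in the other controls and *Cdh1* at 15.7 against 0.559 and 1.53. Without it 2 of the 10 genes, *Tagln* and *Cnn1*, were called in homozygotes against controls, and *Tpm1* was not (0.21 on the log2 scale, limma adjusted p = 0.124). No marker with a row was below a value of 1 in all libraries. In whole hearts, fewer cells of a type and less RNA per cell cannot be told apart.

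The promoters of the genes on which the results turn are shown here because the CArG box is a well-studied element of this family. Sequences come from the RefSeq promoter table (build GRCm38.p6), which held 8 of the 10 genes, with no entry for *Tagln* and *Myh11*. Each line gives the 250 bases that end just before the transcription start, 5′ to 3′ on the gene's strand. Capitals mark CArG boxes of 10 bases, exact or with 1 mismatch among the 6 bases of the A and T core.
Acta1 (skeletal actin), chr8:123894776-123895025, minus strand: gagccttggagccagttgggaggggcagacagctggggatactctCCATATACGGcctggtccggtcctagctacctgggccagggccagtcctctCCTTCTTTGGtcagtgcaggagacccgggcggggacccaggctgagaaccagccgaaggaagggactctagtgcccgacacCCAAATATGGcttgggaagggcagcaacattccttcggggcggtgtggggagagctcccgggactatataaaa
Actc1 (cardiac actin), chr2:114052876-114053125, minus strand: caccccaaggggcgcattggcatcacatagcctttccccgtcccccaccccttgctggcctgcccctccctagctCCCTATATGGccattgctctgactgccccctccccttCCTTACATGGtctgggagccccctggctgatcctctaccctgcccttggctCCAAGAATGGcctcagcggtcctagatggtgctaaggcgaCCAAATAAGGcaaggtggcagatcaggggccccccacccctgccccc
Acta2 (smooth muscle actin), chr19:34255374-34255623, minus strand: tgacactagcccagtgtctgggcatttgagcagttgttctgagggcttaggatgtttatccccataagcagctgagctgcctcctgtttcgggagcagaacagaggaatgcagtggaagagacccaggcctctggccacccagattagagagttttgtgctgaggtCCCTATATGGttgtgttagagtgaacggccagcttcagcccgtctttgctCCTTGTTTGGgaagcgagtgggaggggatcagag
Myl9 (smooth muscle regulatory light chain), chr2:156775214-156775463, plus strand: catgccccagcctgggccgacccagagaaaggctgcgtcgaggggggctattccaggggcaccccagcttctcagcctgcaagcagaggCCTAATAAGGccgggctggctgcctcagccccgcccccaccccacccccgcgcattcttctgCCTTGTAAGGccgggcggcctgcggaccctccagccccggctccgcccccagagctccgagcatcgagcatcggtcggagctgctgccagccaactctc
Tpm1 (tropomyosin 1), chr9:67049214-67049463, minus strand: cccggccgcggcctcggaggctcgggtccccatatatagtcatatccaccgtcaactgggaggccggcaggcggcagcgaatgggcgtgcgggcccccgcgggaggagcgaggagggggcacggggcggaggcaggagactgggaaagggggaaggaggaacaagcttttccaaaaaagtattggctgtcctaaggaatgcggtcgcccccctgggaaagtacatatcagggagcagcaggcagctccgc
Cnn1 (calponin 1), chr9:22099003-22099252, plus strand: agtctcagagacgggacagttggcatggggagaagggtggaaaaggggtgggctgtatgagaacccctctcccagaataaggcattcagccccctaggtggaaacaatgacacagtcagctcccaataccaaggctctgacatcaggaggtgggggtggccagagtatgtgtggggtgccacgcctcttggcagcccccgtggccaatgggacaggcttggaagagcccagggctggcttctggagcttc

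An exact CArG box was present in 3 of the 8 promoters, searched from 250 bases before to 50 after the start, and a box with up to 1 core mismatch in 4. The motif is its own reverse complement, so both strands were covered. Of all 32851 promoters of the same length in the table, 1.63% held an exact box, 9.98% a box with up to 1 core mismatch and 0.822% at least 2 of these. *Actc1* had 4 boxes, of which the exact CCAAATAAGG began 47 bases before the start. *Acta1* had 3, and its exact CCAAATATGG began 73 bases before the start. *Acta2* had 2, each with 1 mismatch, and shared the box CCCTATATGG with *Actc1*. *Myl9* had the exact CCTAATAAGG and 1 with a mismatch. *Tpm1*, *Tpm2*, *Tpm4* and *Cnn1* had no such letters in this window. A match is a description of the sequence and was not linked to binding.

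**Figure D1:**
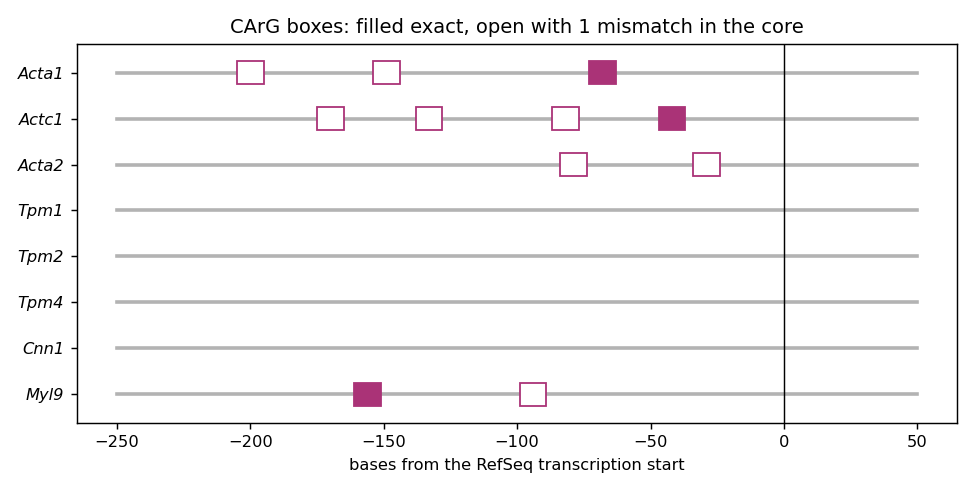
Position of CArG boxes in the RefSeq promoters of 8 of the 10 genes. The x axis gives bases from the transcription start, gray lines span the 300 bases searched, and boxes are filled for exact matches and open for those with 1 mismatch in the core. The 3 actins and *Myl9* held all of the 11 boxes found.

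Levels spanned a wide range within the embryonic heart. Compared per kb of exon, *Actc1* had the highest level in controls, 3471 ± 192 (SD, n = 3) normalized units per kb, followed by *Acta2* at 775 ± 41.0 and *Myl9* at 704 ± 62.3. *Tpm1* was at 318 ± 18.3, *Tagln* at 250.4 ± 17.0, *Acta1* at 189 ± 13.2 and *Tpm4* at 183 ± 7.66. *Cnn1* was at 77.6 ± 3.00, *Tpm2* at 28.2 ± 1.46 and *Myh11*, the myosin heavy chain of mature smooth muscle, at 0.437 ± 0.366. This order was the same in heterozygotes and homozygotes. Neighbors in the order whose libraries overlapped were *Acta2* and *Myl9* in controls, *Tagln* and *Acta1* in heterozygotes, and *Acta1* and *Tpm4* in controls and homozygotes. The length is the union of all annotated exons, which lowers the level per kb of a gene with many alternative exons such as *Tpm1*, and values of *Tpm1* and *Tpm4* pool muscle and non-muscle isoforms.

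Within the muscle actins, *Actc1* made up 78.3% ± 0.424 (SD, n = 3) of the sum per kb in controls, 78.3% ± 0.796 in heterozygotes and 79.2% ± 0.839 in homozygotes. *Acta2* made up 17.5% ± 0.360, 17.1% ± 0.806 and 16.4% ± 0.565 in the same order. *Acta1* made up 4.26% ± 0.0921, 4.64% ± 0.210 and 4.40% ± 0.275. Cardiac actin was thus the main muscle actin in every library, between 77.4% and 80.2%.

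Homozygotes were compared with controls to see what the loss of both alleles changed, with all 9 libraries in 1 limma fit and p-values adjusted over all 14011 genes. *Tpm1* rose, and the smooth muscle genes *Tagln* and *Cnn1* fell, whereas the 3 actins, *Tpm2*, *Tpm4*, *Myh11* and *Myl9* did not pass an adjusted p under 0.05. Thus 1 of 10 genes was called higher and 2 lower, where 7.19% of all genes were called higher and 8.03% lower. The median log2 fold change over the 10 genes was 0.00055, with a range from -0.27 to 0.80, and the median over all genes was -0.0011. The same 3 genes were those whose homozygous libraries did not overlap the controls, 1 above and 2 below, where 16.6% of all genes lay wholly above and 16.5% wholly below.

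Homozygotes were compared with heterozygotes, which share the driver and differ in the second allele. *Acta1*, *Cnn1* and *Myl9* fell, and 0 of 10 genes rose, where 6.87% of all genes were called higher and 6.70% lower. The median log2 fold change was -0.14 (from -0.37 to 0.65) over the 10 genes and -0.0045 over all genes. Homozygous libraries lay wholly below the heterozygous ones for *Acta1*, *Acta2*, *Cnn1* and *Myl9*, and wholly above for *Tpm1*, where 15.5% of all genes lay wholly below and 15.3% wholly above. Both comparisons use the same homozygous libraries, so their values are given side by side and the overlap of their calls is not a separate result.

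Heterozygotes were compared with controls for the effect of 1 deleted allele together with the driver. No gene of the 10 was called by limma, where 0.0928% of all genes were called higher and 0.05% lower. At an unadjusted p under 0.05 limma gave 1 of the 10, *Acta1*, which edgeR's quasi-likelihood test did not call (0 of 10) and DESeq2 called (1 of 10, adjusted p = 0.0281). At that unadjusted p limma gave 1032 of all 14011 genes. *Acta1*, *Acta2* and *Myl9* were higher in every heterozygous library than in every control library, where 7.41% of all genes lay wholly above and 6.93% wholly below. The median log2 fold change over the 10 genes was 0.12, from -0.06 to 0.28.

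**Figure D2:**
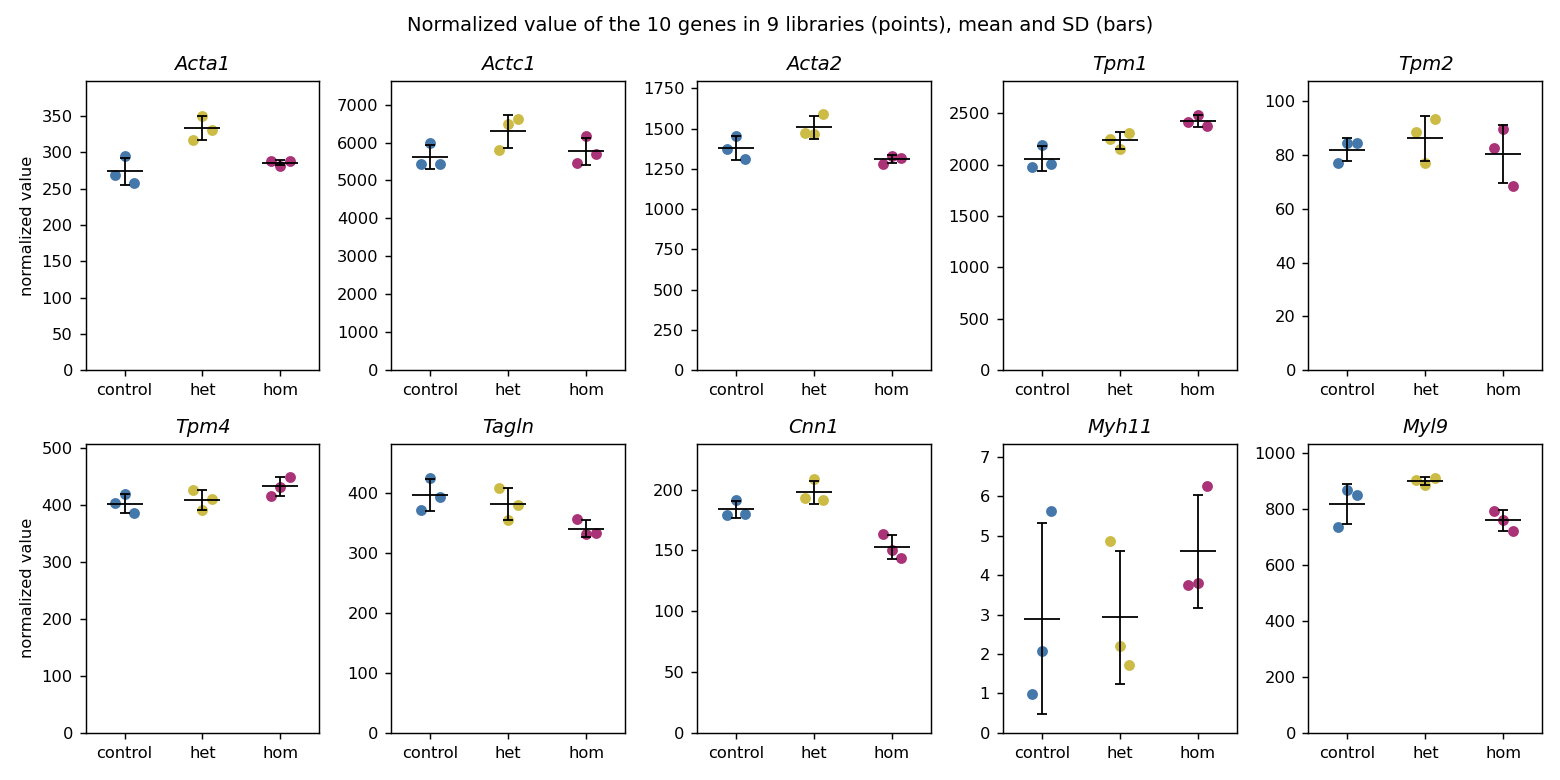
Normalized value (y axis, from 0) of each of the 10 genes in the 9 libraries, with 3 points per genotype (het, heterozygote, and hom, homozygote), the mean as a horizontal line and the SD as error bars. All homozygous libraries of *Tpm1* lie above, and those of *Cnn1* below, all other libraries, those of *Tagln* lie below the controls, and *Myh11* does not pass 6.26.

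*Actc1* (ENSMUSG00000068614, chr2:113873018-113879284 of NCBIM37), the cardiac actin, had values of 5429, 5975 and 5446 in controls. It had 5804, 6481 and 6613 in heterozygotes and 5459.9, 6164 and 5688 in homozygotes. The groups overlapped in every comparison. In homozygotes it was at a log2 fold change, relative to controls, of 0.04 with a standard error (SE) of 0.09 (limma adjusted p = 0.826) and -0.13 against heterozygotes (limma adjusted p = 0.412), and the sign against controls turned negative with quantile normalization and with the trend with exonic length removed.

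*Acta1* (ENSMUSG00000031972, chr8:126415669-126418651), the actin of adult skeletal muscle, had values of 269, 295 and 257 in controls. It was higher in heterozygotes, at 318, 351 and 331, and was at 288, 282 and 289 in homozygotes. All heterozygous libraries lay above all others, and homozygotes lay within the range of the controls. The homozygote mean was 85.8% of the heterozygote mean (log2 fold change -0.22, SE 0.06, limma adjusted p = 0.0304). Against controls the log2 fold change was 0.07 in homozygotes (limma adjusted p = 0.521), which turned to -0.01 with the trend with exonic length removed, and 0.28 in heterozygotes (limma adjusted p = 0.146). The call against heterozygotes was lost in the fits without the heterozygous library of 7946683 or 4294537 reads and without any 1 of the homozygous replicates (log2 fold change from -0.23 to -0.18, limma adjusted p from 0.0557 to 0.117), and in limma without the trend (adjusted p = 0.1). The value in homozygotes against controls ran from 0.02 to 0.12 with single libraries left out. Of the 50-base stretches in its transcripts, 2.00% also occur in *Actb* or *Actg1*, with which reads could be shared.

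*Acta2* (ENSMUSG00000035783, chr19:34315580-34329826), the actin of vascular smooth muscle, had values of 1373, 1456 and 1311 in controls. It had 1471, 1465 and 1589 in heterozygotes and 1282, 1330.2 and 1318 in homozygotes. The homozygous libraries overlapped the controls and lay below all heterozygous libraries. Relative to controls the homozygotes were at -0.07 on the log2 scale (SE 0.06, limma adjusted p = 0.488) and relative to heterozygotes at -0.20 (SE 0.06, limma adjusted p = 0.0537). The difference from controls was called in 1 of 21 alternatives, quantile normalization (-0.20, limma adjusted p = 0.0422), and ran from -0.11 to -0.03 with single libraries left out. The difference from heterozygotes was called in 8 of 21 alternatives, including edgeR (adjusted p = 0.0469) and DESeq2 (adjusted p = 0.00992).

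To compare the isoforms without the scaling between libraries, ratios were taken within each library. The log2 ratio of *Acta2* to *Actc1* was -1.98, -2.04 and -2.05 in controls. It was -1.98, -2.15 and -2.06 in heterozygotes and -2.09, -2.21 and -2.11 in homozygotes. All homozygous libraries were below all controls, with a difference of -0.11 (two-sided exact permutation p = 0.10, the smallest p that 3 against 3 libraries allow), and quantile normalization turned the difference to 0.0021. Homozygotes and heterozygotes overlapped, with a difference of -0.08 (exact permutation p = 0.4). The log2 ratio of *Acta1* to *Actc1* was from -4.40 to -4.33 in controls, from -4.32 to -4.19 in heterozygotes and from -4.45 to -4.24 in homozygotes. Homozygotes and controls overlapped in this ratio, with a difference of 0.03 (exact permutation p = 0.8) that turned to -0.02 without homozygote replicate 1. Heterozygotes lay wholly above controls, with a difference of 0.12 (exact permutation p = 0.1).

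**Figure D3:**
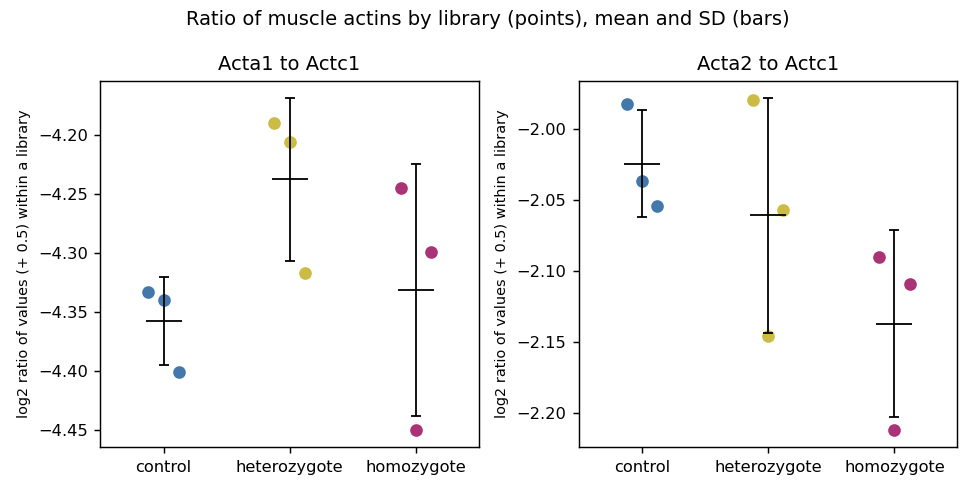
Log2 ratio of *Acta1* to *Actc1* (left) and of *Acta2* to *Actc1* (right) within each library (y axes, which do not start at 0), with 3 points per genotype, the mean as a horizontal line and the SD as error bars. The *Acta2* to *Actc1* ratio of the homozygous libraries lies between -2.21 and -2.09, below the controls, in the values as deposited but not after quantile normalization. That step changes values by their rank within a library, not by a common factor.

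*Tpm1* (ENSMUSG00000032366, chr9:66870397-66897213), the main tropomyosin of cardiac muscle, had values of 1981, 2196 and 2003 in controls. It had 2246, 2152 and 2312 in heterozygotes and 2416, 2486 and 2373 in homozygotes. All homozygous libraries were above all others, and heterozygotes overlapped controls. The homozygote mean was 118% of the control mean (log2 fold change 0.24, SE 0.07, limma adjusted p = 0.0343), and 108% of the heterozygote mean (log2 fold change 0.12, limma adjusted p = 0.298). The call against controls held in the fits without the control library of 9654014 reads and without the heterozygous library of 7946683 reads. It was lost when any of the other 7 libraries was left out (log2 fold change from 0.21 to 0.25, limma adjusted p from 0.0513 to 0.124) and in 5 of the 12 other settings. These were quantile normalization (log2 fold change 0.17, limma adjusted p = 0.119), limma without the trend, the replicate block, only the libraries of the groups compared, and the rescaling outside the erythroid markers (adjusted p from 0.0571 to 0.119 over the 5).

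*Tpm4* (ENSMUSG00000031799, chr8:74658874-74677041), a tropomyosin best known from non-muscle cells, had values of 404, 419 and 386 in controls. It had 427, 391 and 410.3 in heterozygotes and 417, 432 and 450.2 in homozygotes. The groups overlapped in every comparison. Its log2 fold change in homozygotes was 0.10 against controls (limma adjusted p = 0.252) and 0.08 against heterozygotes (limma adjusted p = 0.393). *Tpm2* (ENSMUSG00000028464, chr4:43527583-43536637), the tropomyosin of slow skeletal and smooth muscle, had values from 77.1 to 84.5 in controls, from 76.9 to 93.3 in heterozygotes and from 68.6 to 89.6 in homozygotes. Homozygote replicate 3 had its lowest value, and the log2 fold change of -0.04 against controls (limma adjusted p = 0.839) was 0.07 without that library.

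*Cnn1* (ENSMUSG00000001349, chr9:21903725-21914074), which encodes calponin 1, an actin-binding protein of smooth muscle, had values of 179, 192 and 180.0 in controls. It had 193, 209 and 192 in heterozygotes and 163, 150.4 and 144 in homozygotes. All homozygous libraries were below all libraries of both other groups. The homozygote mean was 83.1% of the control mean (log2 fold change -0.27, SE 0.06, limma adjusted p = 0.0118), and 77.1% of the heterozygote mean (log2 fold change -0.37, SE 0.06, limma adjusted p = 0.00206). Against heterozygotes it was called in all 21 alternative settings. Against controls the call was lost without homozygote replicate 3 (log2 fold change -0.23, limma adjusted p = 0.0524) and in limma without the mean-variance trend (limma adjusted p = 0.058).

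*Tagln* (ENSMUSG00000032085, chr9:45737711-45744141) encodes transgelin, an early smooth muscle protein that binds actin. Its values were 372, 426 and 394 in controls, 408, 355 and 380.3 in heterozygotes, and 357, 332 and 333 in homozygotes. Homozygotes were wholly below controls and overlapped heterozygotes. The homozygote mean was 85.8% of the control mean (log2 fold change -0.22, SE 0.07, limma adjusted p = 0.042), and 89.4% of the heterozygote mean (log2 fold change -0.16, limma adjusted p = 0.137). The call against controls was lost without the control library of 9654014 or 6698891 reads, without the heterozygous library of 4294537 reads, and without homozygote replicate 2 or 3 (log2 fold change from -0.23 to -0.17, limma adjusted p from 0.0572 to 0.149). It was also lost with the replicate block (adjusted p = 0.078) and in limma without the trend (adjusted p = 0.123).

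*Myl9* (ENSMUSG00000067818, chr2:156601156-156607394) encodes the regulatory light chain of smooth muscle and non-muscle myosin. Its values were 735, 867 and 851 in controls, 904, 885 and 911 in heterozygotes, and 795, 762 and 722 in homozygotes. Homozygotes overlapped controls and lay wholly below heterozygotes. Homozygotes were at -0.25 on the log2 scale relative to heterozygotes (SE 0.07, limma adjusted p = 0.0324) and at -0.10 relative to controls (limma adjusted p = 0.351). The call was lost without any 1 of the heterozygous libraries and without homozygote replicate 2 or 3 (log2 fold change from -0.26 to -0.21, limma adjusted p from 0.0675 to 0.115). It was also lost with the replicate block (adjusted p = 0.0657) and in limma without the trend (adjusted p = 0.0983). The value against controls ran from -0.18 to -0.06 with single libraries left out.

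*Myh11* (ENSMUSG00000018830, chr16:14194620-14291501) had values from 0.989 to 5.63 in controls, from 1.73 to 4.85 in heterozygotes and from 3.75 to 6.26 in homozygotes, from 7 to 69 reads per library. The groups overlapped, and its difference from controls in homozygotes (log2 fold change 0.80, SE 0.45, limma adjusted p = 0.258) was not called. This marker of mature smooth muscle was measured near the lower end of the table while *Acta2*, *Tagln* and *Cnn1* were measured at 719 reads or more in each library. Mural cells are the smooth muscle and pericyte lineage of vessels. Of their 8 markers with a row, 2 (*Cspg4* and *Abcc9*) were called lower in homozygotes in each comparison and 6 were not called. Over all genes 8.03% were called lower against controls and 6.70% against heterozygotes. The mean of *Cspg4* was 16.1 in homozygotes and 37.4 in controls, and that of *Abcc9* was 71.9 and 102. The summed value of the 8 markers was from 172 to 229 in homozygotes, 278 to 286 in controls and 245 to 316 in heterozygotes. The summed values of this list and of cushion mesenchyme were lower in homozygotes than in controls, as were *Tagln* and *Cnn1*. The part of these lists in the result was not tested.

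**Figure D4:**
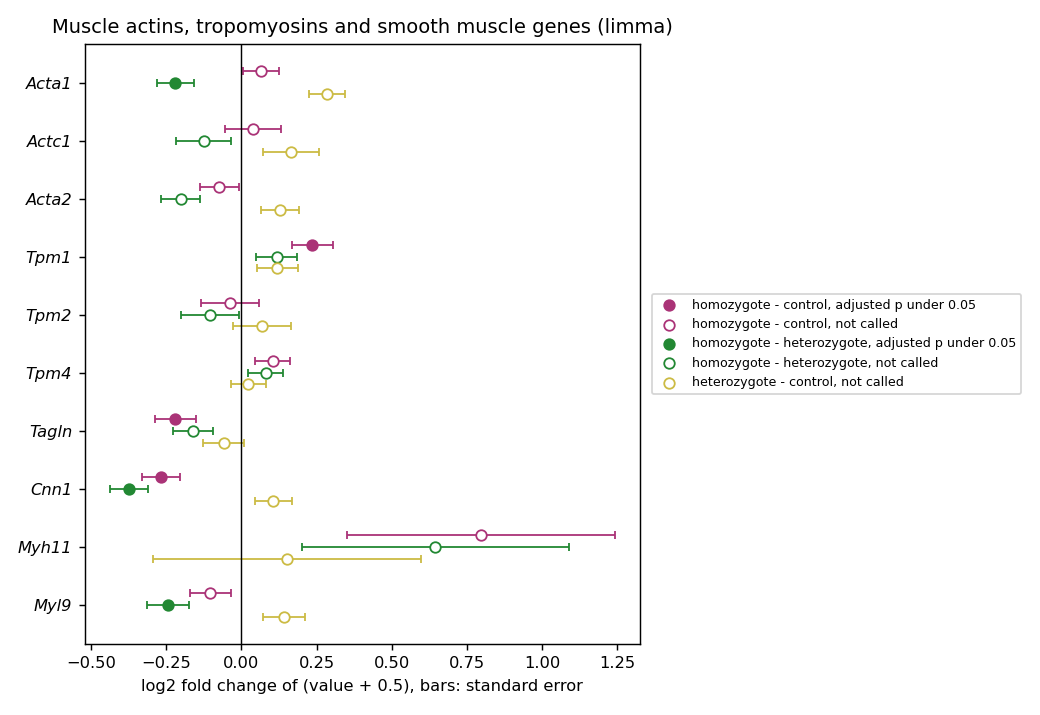
Log2 fold change of the 10 genes in the 3 comparisons (x axis, log2 of the value plus 0.5), with the standard error as bars, filled where the limma adjusted p was under 0.05 and open otherwise. Against controls *Tpm1* is filled to the right and *Tagln* and *Cnn1* to the left, and against heterozygotes *Acta1*, *Cnn1* and *Myl9* are filled to the left.

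The smooth muscle genes held 2 calls lower among 4 in each comparison of homozygotes, with medians of -0.16 against controls and -0.20 against heterozygotes. The calls were *Tagln* and *Cnn1* against controls, where 8.03% of all genes were called lower, and *Cnn1* and *Myl9* against heterozygotes, where 6.70% were. The fourth gene, *Myh11*, was not called and had log2 fold changes of 0.80 and 0.65, which ran from 0.32 to 1.34 and from 0.39 to 1.02 with single libraries left out. The striated actins had a median of 0.05 against controls with 0 of 2 called (0 at an unadjusted p under 0.05, where 4145 of all 14011 genes passed, and 0 with edgeR and DESeq2). Against heterozygotes their median was -0.17 with 1 of 2 called lower. With the values rescaled to all genes outside the erythroid markers, an alternative chosen after seeing the data, 2 of the 10 were called against controls (*Tagln* and *Cnn1*) and 4 against heterozygotes (*Acta1*, *Acta2*, *Cnn1* and *Myl9*). The erythroid markers moved with genotype, and their part in the remaining differences was not tested.

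Genes with the pattern most like each actin over the 9 libraries were sought among 9846 others with a mean value of at least 10, by the root mean square difference of centered log2 values. For *Acta1* they were *Oxa1l*, a mitochondrial insertase (0.0439), *Mlycd*, malonyl-CoA decarboxylase (0.0535), and *Ncdn* (0.0581), where *Acta1* itself varied with an SD of 0.143. For *Actc1* they were *Dnm1l*, a dynamin of mitochondrial fission (0.0434), *Hadha*, an enzyme of fatty acid oxidation (0.0451), and *Cs*, citrate synthase (0.0464), against an SD of 0.108. For *Acta2* they were *0610009O20Rik* (0.0403), *Msra*, a methionine sulfoxide reductase (0.0419), and *Chn1* (0.0428), against an SD of 0.103. Among the other genes described here, *Actc1* ranked 21 in likeness to *Acta1*, and *Acta2* ranked 62 in likeness to *Actc1*. These are descriptions over libraries that share depth and scaling.

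Of 16 other listed genes of the thin filament, 15 had a row (*Tmod4* had none), of which 2 were called higher and 2 lower in homozygotes against controls, with a median log2 fold change of -0.03. Over all genes 7.19% were called higher and 8.03% lower. When homozygote replicate 3 or the control library of 9654014 reads was left out, 1 was called higher and 1 lower. Against heterozygotes 0 were called higher and 3 lower, with a median of -0.05, where 6.87% of all genes were called higher and 6.70% lower. *Lmod2*, leiomodin 2, which elongates cardiac thin filaments, fell from 46.6 ± 1.98 (SD, n = 3) in controls to 31.3 ± 3.92 in homozygotes and was at 49.97 ± 5.48 in heterozygotes (log2 fold change -0.57 against controls, limma adjusted p = 0.00237). Its relative *Lmod3*, known from skeletal muscle, rose from 19.5 ± 2.54 to 28.6 ± 3.19 (log2 fold change 0.54, limma adjusted p = 0.00651) and was at 23.7 ± 0.851 in heterozygotes. *Fhod3*, a formin of the cardiac sarcomere, fell by 0.29 on the log2 scale against controls (limma adjusted p = 0.041) and by 0.48 against heterozygotes (limma adjusted p = 0.00365). *Xirp1*, an actin-binding protein of the intercalated disc, fell against heterozygotes (log2 fold change -0.51, limma adjusted p = 0.0108) and was at -0.34 against controls (limma adjusted p = 0.0567).

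*Actg2*, the actin of visceral smooth muscle, was low in all libraries, at 1.34, 0.864 and 1.68 in controls, 1.72, 2.08 and 1.04 in heterozygotes and 2.61, 2.79 and 4.19 in homozygotes. All homozygous libraries were above all others, with 4 to 46 reads per library over the 9. Homozygotes were called higher than controls (log2 fold change 1.04, SE 0.29, limma adjusted p = 0.0289). The call was lost without the control library of 8457617 reads (log2 fold change 1.08), without that of 9654014 reads (0.86) and without homozygote replicate 3 (0.86). The call of *Fhod3* against controls was lost without the control library of 9654014 or 6698891 reads, the heterozygous library of 4294537 reads, or homozygote replicate 1 or 3 (log2 fold change from -0.29 to -0.22). It was also lost with quantile normalization, in limma without the trend and with the trend with exonic length removed (limma adjusted p from 0.0585 to 0.119). *Xirp1* was called against controls in 6 of 21 alternatives. These were the fits without the control library of 8457617 reads (-0.42) or homozygote replicate 2 (-0.47), the filter on low values, DESeq2, voom and the rescaling outside the erythroid markers (adjusted p from 0.0123 to 0.0495). It was at -0.21 without homozygote replicate 3 (limma adjusted p = 0.217) and at -0.27 without the control library of 6698891 reads (limma adjusted p = 0.213). Its call against heterozygotes was lost in limma without the trend (adjusted p = 0.0656).

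Further genes of smooth muscle contraction and adhesion, a list of 25 that all had a row and shared *Actg2* with the list above, were called higher for 2 and lower for 6 in homozygotes against controls, beside 7.19% and 8.03% of all genes. Their median log2 fold change was -0.06, and without homozygote replicate 3 the calls were 1 higher and 4 lower. Against heterozygotes 1 was called higher and 5 lower, with a median of -0.03, beside 6.87% and 6.70% of all genes. *Csrp2*, a LIM-domain protein of arterial smooth muscle, rose from 184 ± 4.77 (SD, n = 3) in controls to 307 ± 37.0 in homozygotes and was at 223 ± 12.6 in heterozygotes. Its log2 fold change in homozygotes was 0.73 against controls (limma adjusted p = 5.14e-05) and 0.46 against heterozygotes (limma adjusted p = 0.00212). *Synpo2*, an actin-bundling protein of the Z-disc and of smooth muscle, fell from 97.0 ± 0.964 to 66.5 ± 6.98 and was at 98.2 ± 3.99 in heterozygotes (log2 fold change -0.55 against controls, limma adjusted p = 0.000377).

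Further genes of this list fell against controls. *Actn1*, non-muscle alpha-actinin, changed by -0.38 (limma adjusted p = 0.000525), *Vcl*, vinculin, by -0.40 (limma adjusted p = 0.015) and *Itga1*, the integrin alpha 1 chain, by -0.54 on the log2 scale (limma adjusted p = 0.00197). *Fhl1*, a LIM-only protein of striated muscle, changed by -0.28 (limma adjusted p = 0.00978). Against heterozygotes *Actn1*, *Vcl* and *Fhl1* were also called lower, while *Itga1* was at -0.23 (limma adjusted p = 0.117). The call of *Vcl* against controls was lost without the control library of 6698891 reads (log2 fold change -0.31) or homozygote replicate 3 (-0.32), and against heterozygotes without homozygote replicate 3 (-0.35). In limma without the trend it was lost in both comparisons (adjusted p = 0.0759 and 0.0673). That of *Fhl1* against heterozygotes was lost without the heterozygous library of 7946683 or 4294537 reads or homozygote replicate 1 or 3 (from -0.23 to -0.20), and in limma without the trend, DESeq2 and the replicate block (adjusted p from 0.0532 to 0.0874). *Itga1* was called against heterozygotes without homozygote replicate 2 (-0.32).

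A list of SRF, its cofactors and related transcription factors covered the regulators of this family. Of 14 listed symbols 12 had a row, where *Mrtfa* and *Mrtfb* are newer names of *Mkl1* and *Mkl2*, which were counted. In homozygotes against controls 0 of 12 were called higher and 4 lower, with a median log2 fold change of -0.21, and against heterozygotes 0 were called higher and 5 lower, with a median of -0.20. The share of all genes called lower was 8.03% against controls and 6.70% against heterozygotes. *Myocd* encodes myocardin, the cofactor that directs SRF to muscle genes. Its values were 55.5, 60.2 and 62.6 in controls, 53.0, 60.2 and 67.9 in heterozygotes, and 44.2, 42.1 and 33.5 in homozygotes. All homozygous libraries were below all others, at 67.1% of the control mean (log2 fold change -0.58, SE 0.11, limma adjusted p = 0.00382) and 66.1% of the heterozygote mean (log2 fold change -0.59, limma adjusted p = 0.00359). The calls of *Myocd* were kept in all 21 alternative settings in both comparisons.

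*Srf* itself had values of 107, 117 and 122 in controls, 125, 123 and 138 in heterozygotes, and 113, 114 and 98.0 in homozygotes. Homozygotes overlapped controls (log2 fold change -0.09, limma adjusted p = 0.488, from -0.14 to -0.02 with single libraries left out) and lay wholly below heterozygotes (log2 fold change -0.24, limma adjusted p = 0.0482). The latter call was lost when any library was left out except the control library of 8457617 reads and homozygote replicate 2 (log2 fold change from -0.27 to -0.17), and in 7 of the 12 other settings. The myocardin-related factors were not called, with log2 fold changes against controls of -0.18 for *Mkl1* (limma adjusted p = 0.317) and -0.25 for *Mkl2* (limma adjusted p = 0.0578). *Mkl2* was called in 3 of 21 alternatives, without the heterozygous library of 9896345 reads (-0.25, limma adjusted p = 0.0408), with the filter on low values (-0.25, limma adjusted p = 0.0496) and with the rescaling outside the erythroid markers (-0.28, limma adjusted p = 0.0295). *Hopx*, a homeodomain-only protein known to bind SRF, was at 61.7% of the control mean (log2 fold change -0.69, limma adjusted p = 0.000218). *Fhl2*, a LIM-only cofactor, was at 68.4% (log2 fold change -0.55, limma adjusted p = 0.00061), and *Mef2c*, a muscle transcription factor, at 74.6% (log2 fold change -0.42, limma adjusted p = 0.00148). Against heterozygotes these 3 were at 66.8%, 62.9% and 73.0% of the mean, and all were called in every alternative setting of both comparisons.

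**Figure D5:**
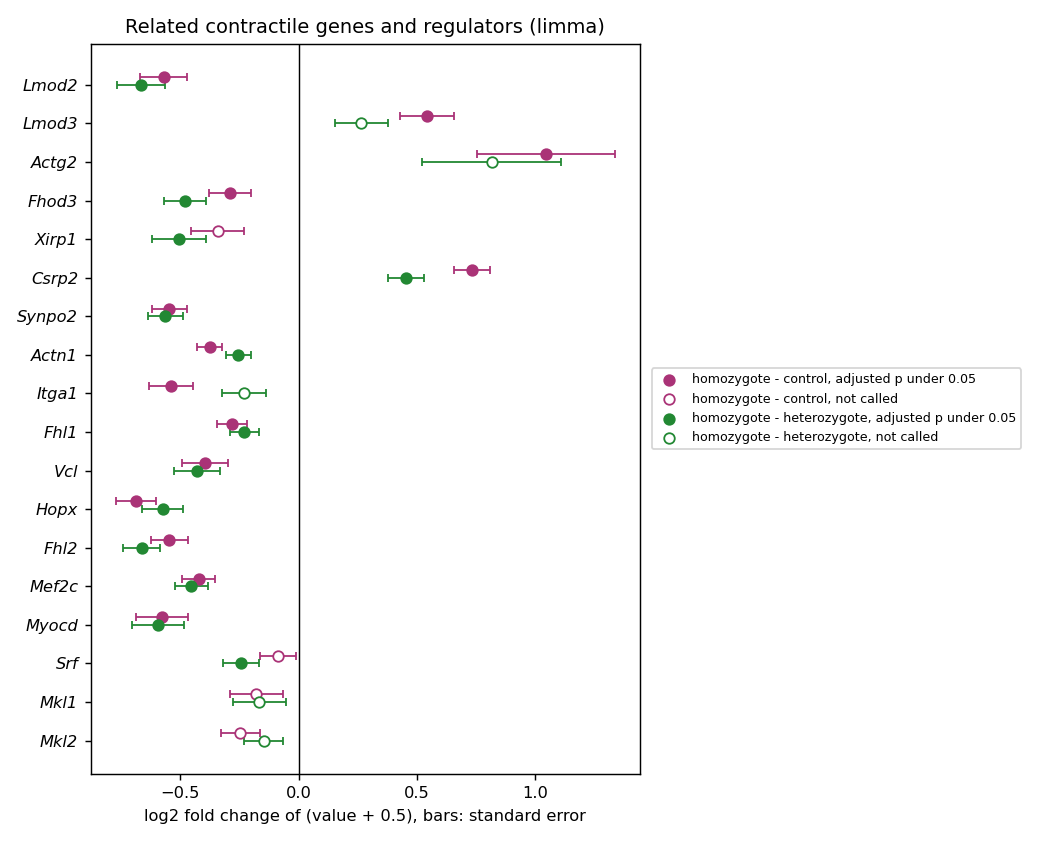
Log2 fold change (x axis, log2 of the value plus 0.5) of 18 related contractile genes and regulators in homozygotes against controls and against heterozygotes, with the standard error as bars, filled where the limma adjusted p was under 0.05. *Csrp2* is filled to the right in both comparisons. *Lmod2*, *Fhod3*, *Synpo2*, *Actn1*, *Fhl1*, *Vcl*, *Hopx*, *Fhl2*, *Mef2c* and *Myocd* are filled to the left in both.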

How the data were processed

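The authors made poly(A) libraries with a TruSeq kit, sequenced them on a GAIIx instrument and, per the submitters' processing notes, used CASAVA, cutadapt, RSEM, Bowtie2 and limma on NCBIM37. RSEM divides reads that match several transcripts among them. The deposited table holds normalized signal values for 14011 genes, which were whole reads plus an offset divided by an effective library size (100% whole within 0.05). Columns named KO match the titles of the homozygotes. Columns named Het were taken as controls and columns named DH as heterozygotes with the driver, although the sample titles use HET for the latter. This reading rests on the double heterozygotes of the cross protocol, on controls heterozygous for the floxed allele in the study's text and on its group averages, which equal the means of these columns. Control and heterozygous columns cannot be tied to single deposited samples. Names, positions and exonic lengths came from GENCODE M1 (13987 genes).

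Values were analyzed as log2(value + 0.5), a scale that understates changes of low genes, with limma 3.58.1 in R 4.3.3. All 9 libraries were fitted with a mean-variance trend and Benjamini-Hochberg adjustment, and a gene was called at an adjusted p under 0.05. Actin ratios were compared with exact permutation tests. Libraries of a genotype differed by more than counting error (chi-square divided by its degrees of freedom, 3.22 to 7.15), and p-values measure the spread between pools. The alternatives used edgeR 4.0.16 and DESeq2 1.42.0 on recovered reads, voom, other pseudocounts, a filter, scaling, a length correction, a replicate block and each library left out. Methods were tested on simulated data. Sequences were searched with Python 3.11.15. The genes and lists were chosen with earlier results of these data known. Named besides the 10 genes were, from each related list, up to 6 called genes by smallest adjusted p, SRF regulators *Srf*, *Myocd*, *Mkl1* and *Mkl2*, and 3 genes most like each actin. *Cspg4*, *Abcc9*, *Tmod4*, *Myod1*, *Myog*, *Tnni3*, *Myl4*, *Ryr2*, *Actn2*, *Myh6*, *Myh7*, *Vcan*, *Col1a1*, *Afp* and *Cdh1* were named outside this rule, after the table was seen.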

Additional observations from a re-analysis of the deposited data

How the results depend on the processing

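Against controls, 3 of the 10 genes were called in 8 other settings, 2 with only the libraries of the groups compared or with the rescaling outside the erythroid markers, and 0 at an adjusted p under 0.01 or in limma without the trend. With quantile normalization the 3 were *Acta2*, *Tagln* and *Cnn1*, and *Tpm1* was not called. Against heterozygotes 3 or 4 were called in 9 other settings, 5 when the trend with exonic length was removed and 1 in limma without the trend or at an adjusted p under 0.01. In heterozygotes against controls DESeq2 called 1 and all other settings 0. Leaving out 1 library gave from 0 to 3 calls against controls, 1 to 4 against heterozygotes and 0 in heterozygotes against controls. Without homozygote replicate 3, 0 were called against controls. Over all genes, 2133 were called against controls, but 1196 in limma without the trend, 858 at an adjusted p under 0.01, 1049 without the control library of 6698891 reads and 1267 without homozygote replicate 3. Against heterozygotes 1901 were called, but 1063 and 722 in the first 2 of these settings and 1257, 1223 and 1023 without the heterozygous library of 7946683 or 4294537 reads or homozygote replicate 3. In heterozygotes against controls 20 were called, but 10 in limma without the trend, 40 with DESeq2, and 13 at an adjusted p under 0.01 or without the heterozygous library of 4294537 reads. The rescaling, and all alternatives for related genes, were chosen after seeing the data. The cause of these changes was not tested.

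The numbers that end the column names did not pair the libraries. Correlations of deviations from group means ran from -0.14 to 0.13 for libraries with the same number and from -0.13 to 0.18 for others, and 2 of 9 libraries were closest to their own number. With this number as a replicate block 1 gene (*Cnn1*) was called against controls and 2 (*Acta1* and *Cnn1*) against heterozygotes, with 0 in heterozygotes against controls.

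Signs turned only for values that were not called. With the trend with length removed *Acta1* was at -0.0146 and *Actc1* at -0.0272 against controls, and with quantile normalization *Actc1* was at -0.20 and the *Acta2* to *Actc1* ratio at 0.0021. With single libraries left out, log2 fold changes against controls ran from -0.0099 to 0.084 for *Actc1* and from -0.12 to 0.071 for *Tpm2*, and against heterozygotes from -0.19 to 0.0029 for *Tpm2*. In heterozygotes against controls they ran from -0.0078 to 0.056 for *Tpm4* and from -0.32 to 0.70 for *Myh11*. In homozygotes against controls the *Acta1* to *Actc1* ratio ran from -0.0166 to 0.086 and the *Acta2* to *Actc1* ratio from -0.14 to -0.07. *Myh11* and *Actg2* rested on few reads, from 4 to 69 per library.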
